A study of Mus musculus with 4 samples.

Results

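The splicing factor genes described here encode hnRNP proteins, SR proteins, core and specific proteins of the snRNPs, and the SF3a and SF3b complexes. They were taken as the probe sets annotated to exactly 1 gene symbol that begins with Hnrnp, Srsf, Snrp, Sf3a or Sf3b, with 1 probe set per gene, the one with the highest mean signal over the 4 arrays. This gave 47 genes of 18193 named genes on the array: 19 hnRNP genes, 10 SR genes, 9 Sm and snRNP genes and 9 SF3 genes. Another 16 probe sets name a gene with one of these prefixes together with a further symbol, and these were not used. A floor was set at 24.9 signal units, the median of the probe sets' mean signal. By their mean, 45 of the 47 genes reached it, and these 45 lay above it on every array, so none of their differences is a bound. Srsf12, an SR-related gene, and Snrpn, the imprinted gene of the neural SmN protein, did not reach it and were not tested. Srsf12 read 2.88 and 23.1 units in p38a-KO cells after UVB and unirradiated, against 19.3 and 20.6 in WT cells, and Snrpn 4.96 and 22.2 against 28.0 and 23.5.

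Primary keratinocytes, the epithelial cells of the epidermis, had been cultured from newborn C57BL/6 mice that were labelled p38a-KO or WT, where p38a is the stress-activated kinase encoded by Mapk14. Each genotype was measured 4 h after ultraviolet B light (UVB) at 75 mJ/cm2 and without irradiation, which gives 4 groups (p38a-KO after UVB, p38a-KO unirradiated, WT after UVB and WT unirradiated) with 1 array each. No group has a replicate, the number of arrays limits the precision, and no difference between 2 arrays has a test. The sample descriptions carry K14C on the p38a-KO arrays, and the sources used here do not say which part of Mapk14 is deleted, in which cells, or how many animals were used, and they name no unirradiated culture kept for 4 h.

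Pre-mRNA splicing removes introns in steps carried out by the spliceosome. Most of its snRNPs combine a small nuclear RNA with a ring of Sm proteins and a few specific proteins. The SF3 complexes belong to the U2 snRNP, which recognises the branch point. SR proteins bind exons through RNA recognition motifs and recruit the spliceosome through domains rich in arginine and serine, whereas hnRNP proteins coat nascent transcripts and often repress exons. Many of these genes limit their own mRNA by including exons that lead to its decay. UVB makes DNA lesions that stall RNA polymerase II, and genotoxic stress is known to change splicing.

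The promoters of 4 genes are shown because these genes lie at both ends of the UVB response, Srsf10 and Sf3b3 at the low end and Snrpd3 and Snrpg near 0, and each has 1 listed start. The windows run from 250 bases before to 50 bases after the start, 5′ to 3′, from RefSeq on GRCm38.p6: chr4:135855821-135856120, plus strand, for Srsf10, chr8:110846754-110847053, minus strand, for Sf3b3, chr10:75517792-75518091, plus strand, for Snrpd3 and chr6:86371290-86371589, plus strand, for Snrpg. Capitals mark 7 short motifs, searched on both strands: the CCAAT box by its own letters, the GC box as GGGCGG, the core of Ets factor sites as CCGGAAG, the cAMP response element as TGACGTCA, the E-box as CACGTG, the TATA box as TATAAA and the AP-1 site as TGANTCA. In Snrpd3 a GC box and a CCAAT overlap.
Srsf10: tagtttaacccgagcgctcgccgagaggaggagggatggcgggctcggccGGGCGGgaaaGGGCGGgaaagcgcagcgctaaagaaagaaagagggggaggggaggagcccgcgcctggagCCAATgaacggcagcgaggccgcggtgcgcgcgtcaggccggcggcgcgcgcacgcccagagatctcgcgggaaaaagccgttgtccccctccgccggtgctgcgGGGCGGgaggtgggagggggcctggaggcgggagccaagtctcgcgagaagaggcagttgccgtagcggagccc
Sf3b3: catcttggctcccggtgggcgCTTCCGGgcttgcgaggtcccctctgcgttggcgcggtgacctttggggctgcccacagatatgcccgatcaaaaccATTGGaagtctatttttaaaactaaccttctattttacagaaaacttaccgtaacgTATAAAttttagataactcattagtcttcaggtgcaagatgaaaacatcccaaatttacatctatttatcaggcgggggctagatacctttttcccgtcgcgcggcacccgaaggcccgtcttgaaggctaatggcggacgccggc
Snrpd3: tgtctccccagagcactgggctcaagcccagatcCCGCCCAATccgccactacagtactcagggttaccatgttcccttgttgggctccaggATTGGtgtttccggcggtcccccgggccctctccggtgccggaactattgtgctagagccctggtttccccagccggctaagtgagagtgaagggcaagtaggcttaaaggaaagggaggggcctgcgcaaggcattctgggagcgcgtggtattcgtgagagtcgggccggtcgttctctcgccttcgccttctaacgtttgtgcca
Snrpg: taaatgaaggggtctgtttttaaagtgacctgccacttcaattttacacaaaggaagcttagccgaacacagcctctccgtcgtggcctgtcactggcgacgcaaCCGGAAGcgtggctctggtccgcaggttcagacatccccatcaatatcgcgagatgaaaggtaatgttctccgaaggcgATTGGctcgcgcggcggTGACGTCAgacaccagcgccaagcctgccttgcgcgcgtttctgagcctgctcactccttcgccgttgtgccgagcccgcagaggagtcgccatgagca

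GC content of the windows was 71.3% for Srsf10, 50% for Sf3b3, 60.3% for Snrpd3 and 57.3% for Snrpg. No window holds the AP-1 letters or the E-box. RefSeq lists 53 windows for 40 of the 45 tested genes, and 20 of the 53 windows, or 37.7%, hold the Ets core, against 8.86% of all 32851 windows in the table, which include non-coding and predicted genes. By gene, the Ets core was found for 6 of 7 SF3 genes, 4 of 7 Sm and snRNP genes, 3 of 9 SR genes and 2 of 17 hnRNP genes. The GC box was in 71.7% of the members' windows against 35.7% of all windows, CCAAT in 49.1% against 37.4%, the AP-1 letters in 3.77% against 7.81%, and TATAAA in 9.43% against 13.6%. The cAMP response element was in 1.89% against 1.79% and the E-box in 7.55% against 7.15%. A match describes letters in a window and is no measure of binding.

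Across the whole array, signal was lower on both irradiated arrays than on the unirradiated ones (median over probe sets 18.7 units after UVB in both genotypes, against 34.5 in unirradiated p38a-KO and 30.3 in unirradiated WT cells), so the sign of any small UVB difference depends on the scaling. The median of all 11379 genes tested was -0.82 in p38a-KO and -0.70 in WT cells on the log2 scale as deposited. Quantile normalization, which gives all arrays one distribution, put it at 0.053 and 0.046, and median centring put it at 0.28 and 0.32. The 18 spike-in probe sets had medians of 507.6 to 560.0 units on the 4 arrays. Mapk14 itself read 646.8 units after UVB and 1449 unirradiated in p38a-KO-labelled cells, against 292.5 and 985.4 in WT cells, by its brightest probe set. It was thus not lower under the KO label, a probe set outside the deleted part would not check the genotype, and the cells are called KO-labelled here. Keratinocyte markers (15 of 15 at or above the floor on every array) summed to 78424 to 91270 units. Fibroblast markers (9 of 9 above the floor by mean signal) summed to 5098 and 7430 units in KO-labelled cells after UVB and unirradiated, against 3016 and 3815 in WT cells, and melanocyte markers (7 of 7) to 5620 and 8582 against 4823 and 6148. Leukocyte markers summed to 61.7 to 119.0 units (2 of 7 above the floor by mean signal), endothelial markers to 41.7 to 67.4 (0 of 4) and muscle markers to 139.1 to 180.9 (3 of 5). Ptprc, Cd207, Cd3e, Cd3g, Itgam, Pecam1, Tek, Myh3 and Tnnt3 were below the floor on every array. The part of such cells in the results was not tested.

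As deposited, 40 of 45 splicing factor genes had lower signal 4 h after UVB in both genotypes. This is 88.9%, beside 86.4% of all genes tested. The median difference over both genotypes was -0.63 for the members and -0.75 for all genes. The families differed in how far they were lower. SR genes were lowest, with a median log2 difference of -0.81 in KO-labelled and -0.79 in WT cells. hnRNP genes followed at -0.71 and -0.57 and SF3 genes at -0.68 and -0.43, while Sm and snRNP genes lay at -0.23 and 0.0087. The UVB effect over both genotypes came from limma with irradiation and genotype as additive terms, fitted to all 11379 genes and adjusted over all of them by Benjamini-Hochberg at a threshold of 0.05. By this test 36 of 45 splicing factor genes fell and 0 rose, or 80%, beside a background of 69.4% of all genes that fell and 0.703% that rose. By family, 9 of 9 SR, 17 of 19 hnRNP, 8 of 9 SF3 and 2 of 8 Sm and snRNP genes fell. With 1 residual degree of freedom, the test measures how far the 2 genotypes' responses disagree, pooled with genes of like signal by a prior of 8.13 degrees of freedom, and not a spread between cultures.

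The order of the family medians held under both other scalings, but the signs did not. After quantile normalization the medians over both genotypes were -0.44 for SR, -0.15 for hnRNP, 0.035 for SF3 and 0.22 for Sm and snRNP genes, beside 0.064 for all genes. In that fit 7 of 9 SR genes fell and 0 rose, 8 of 19 hnRNP genes fell and 1 rose, 2 of 9 SF3 genes fell and 0 rose, and 0 of 8 Sm and snRNP genes fell and 4 rose. The background there was 20.5% of all genes that fell and 20.3% that rose. With median centring the medians were 0.30, 0.46, 0.54 and 0.98, beside 0.30 for all genes, and 2 of 45 fell and 35 rose, beside 15.2% and 36.5% of all genes. Without probe sets whose suffix (_x_at or _s_at) marks probes shared between transcripts, SF3 genes lay at -0.68 and hnRNP genes at -0.64, so these neighbours in the order changed places.

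**Figure D1:**
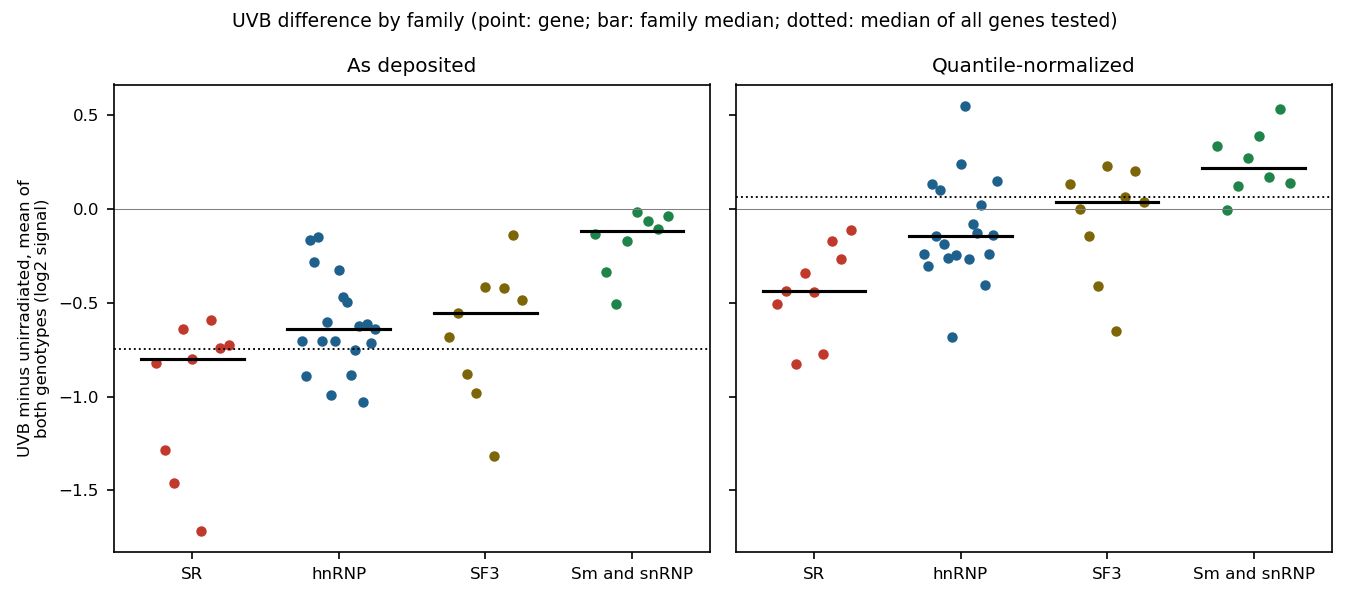
Log2 difference of signal after UVB minus unirradiated, averaged over both genotypes, for each tested gene (points) by family, with family medians (bars) and the median of all genes tested (dotted line), as deposited on the left and after quantile normalization on the right. The family medians keep the order SR, hnRNP, SF3, Sm and snRNP in both panels, at -0.80, -0.64, -0.56 and -0.12 as deposited and -0.44, -0.15, 0.035 and 0.22 after quantile normalization.

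Above 100 units, brighter genes differed less after UVB on these arrays, and splicing factor genes are bright, with a median signal of 1546 units against 183 for all genes tested. Among the 2400 genes between 400 and 1600 units the median UVB difference over both genotypes was -0.67, and the 21 splicing factor genes there had a median of -0.72. Among the 776 genes between 1600 and 6400 units the median was -0.31, and the 21 splicing factor genes there had -0.50. Set against the median of its own signal class, each SR gene lay lower, with a median of -0.49 over the 9. The median was -0.19 for hnRNP genes, with 13 of 19 lower, -0.016 for SF3 genes, with 5 of 9 lower, and 0.21 for Sm and snRNP genes, with 1 of 8 lower. These are descriptions of 4 arrays with no test.

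**Figure D2:**
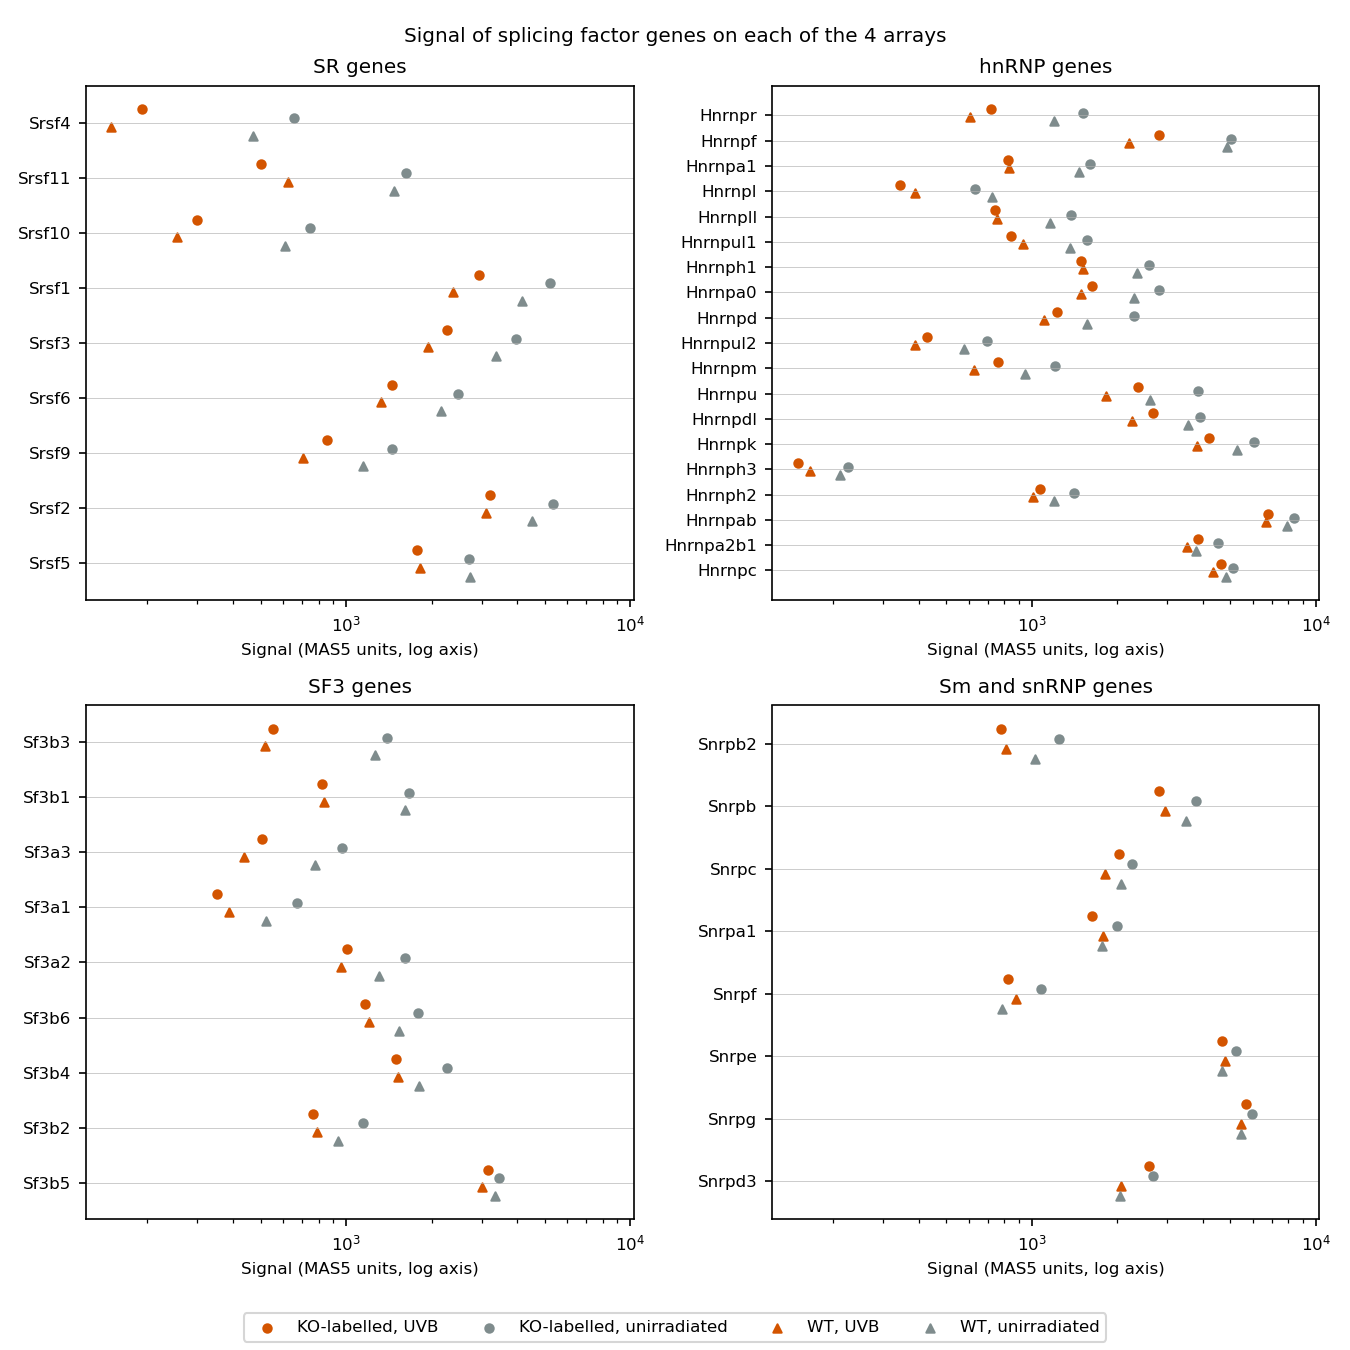
Signal of the 45 tested genes in MAS5 units on a log axis, by family, with 1 point per array (circles KO-labelled, triangles WT, orange after UVB, grey unirradiated). Genes are ordered by their mean UVB difference, lowest at the top. The orange and grey points lie apart for every SR gene and close together for Snrpe, Snrpg and Snrpd3.

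Srsf4, which encodes a large SR protein, had the lowest UVB difference of all 45 genes. It read 191.5 units after UVB and 656.3 unirradiated in KO-labelled cells, against 149.0 and 469.9 in WT cells. Both irradiated arrays were below both unirradiated ones, by 3.43-fold in KO-labelled and 3.15-fold in WT cells, and Srsf4 fell by 1.72 as a log2 difference (SE 0.14, adjusted p = 1.06e-05 in limma).

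Srsf11, an SR-related protein that binds other spliceosome proteins, read 502.9 units after UVB and 1629 unirradiated in KO-labelled cells, against 626.5 and 1470 in WT cells. It fell by 1.46 (SE 0.13), with a 3.24-fold lower signal in KO-labelled and a 2.35-fold lower signal in WT cells. Srsf10, which represses splicing when it loses its phosphates, read 299.8 and 744.8 units in KO-labelled cells, against 253.8 and 607.8 in WT cells, and fell by 1.29 (SE 0.13). These 3 genes were the only SR genes at least 2-fold lower, and each was so in both genotypes. After quantile normalization Srsf4 fell by 0.77, Srsf11 fell by 0.82 and Srsf10 fell by 0.44.

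As deposited, the other SR genes moved less. Srsf1, a founding SR protein that binds exonic enhancers, read 2925 units after UVB and 5208 unirradiated in KO-labelled cells, against 2376 and 4172 in WT cells, and fell by 0.82 (SE 0.09). Srsf3, the smallest SR protein and an adaptor of mRNA export, fell by 0.80 and Srsf6 fell by 0.74. Srsf9, a short SR protein, read 859.7 and 1453 units in KO-labelled cells, against 706.9 and 1143 in WT cells, and fell by 0.73 (SE 0.11). These genes kept both irradiated arrays below both unirradiated ones. Srsf2, whose protein marks nuclear speckles and which was the brightest SR gene, read 3217 and 5368 units in KO-labelled cells, against 3116 and 4524 in WT cells, and fell by 0.64 (SE 0.09), although a dimmer probe set at -0.41 did not pass (limma adjusted p = 0.0875). Srsf5 had the smallest SR difference, at 1778 and 2712 units in KO-labelled cells against 1825 and 2722 in WT cells, and fell by 0.59 (SE 0.09). After quantile normalization Srsf1, Srsf2, Srsf3 and Srsf6 still fell, whereas Srsf5 at -0.17 and Srsf9 at -0.11 did not pass.

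As deposited, other probe sets of the SR genes mostly showed larger differences than the brightest one. Srsf1 has 6 probe sets at or above the floor, with UVB differences over both genotypes of -0.82 for the brightest and -1.15 to -1.70 for the other 5. One of them, 1430982_at, read 495.9 units after UVB and 1747 unirradiated in KO-labelled cells, against 435.8 and 1297 in WT cells. The 4 Srsf10 probe sets ranged from -2.02 to -1.29 and the 6 Srsf3 probe sets from -1.57 to -0.80. Srsf6 ran the other way: its brightest probe set was at -0.74 and its other 3 were at -0.23 to -0.33, and after quantile normalization these 3 were at 0.26 to 0.45 against -0.27. Srsf11 split into 2 bright probe sets at -1.46 and -1.40 and 2 dim ones, with mean signals of 45.9 and 43.1 units, at -0.16 and -0.44. After quantile normalization the pattern was mixed for the other genes as well. The brightest Srsf3 probe set was then at -0.45 and the others ran from -0.84 to 0.26. For Srsf1 the brightest was at -0.51 and the others at -1.03 to -0.32. For Srsf10 these values were -0.44 and -1.04 to -0.37.

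**Figure D3:**
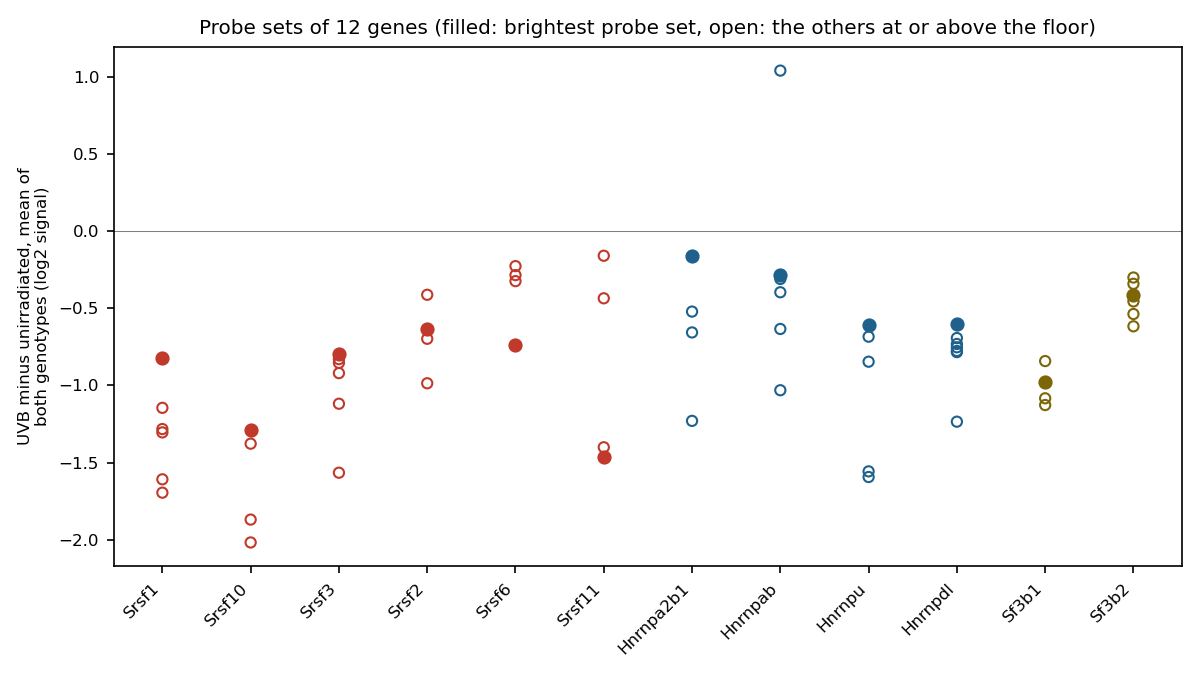
Log2 difference of signal after UVB minus unirradiated, averaged over both genotypes, for every probe set at or above the floor of 12 splicing factor genes. Filled points are the brightest probe set, which stands for the gene elsewhere, and open points are the others. The brightest probe set is the highest for Srsf1 and Srsf10 and the lowest for Srsf6, and 1 Hnrnpab probe set lies at 1.04, above 0.

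Over all members, 125 of 139 probe sets reached the floor by their mean. Of these, 113 were lower after UVB in both genotypes as deposited, 1 was higher in both, and 11 were opposite or at 0. These 11 are all 3 of Snrpa1, the brightest ones of Snrpd3, Snrpg, Snrpe and Snrpf, and dim ones of Snrpd3, Sf3a1, Sf3b2 and Sf3b6. The share over all probe sets of the array was not counted. By gene, 88.9% of the members and 86.4% of all genes tested were lower in both genotypes as deposited. After quantile normalization these shares were 53.3% and 35.8%. As deposited, the median of the others lay below the brightest in 24 of 33 genes with at least 2 such probe sets, or 72.7%. The share was 44.8% of 5209 such genes on the whole array. These shares were not matched for signal, and the members are brighter, with a median of 1546 units against 183 for all genes tested. The sources used here do not place the probe sets on transcripts, so which isoform or which end each one reads is not given.

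The probe set that was higher in both genotypes is 1426114_at, annotated to Hnrnpab, an hnRNP that also binds mRNA in the cytoplasm. It read 6646 units after UVB and 2869 unirradiated in KO-labelled cells, against 3221 and 1769 in WT cells, which is 2.32-fold and 1.82-fold higher. The brightest Hnrnpab probe set, which was also the brightest of all members, read 6759 and 8402 units in KO-labelled cells, against 6647 and 7917 in WT cells, and fell by 0.28 (SE 0.08, limma adjusted p = 0.0119). The other 5 Hnrnpab probe sets at or above the floor had differences of -1.03 to -0.29. This contrast was chosen after its values were seen and has no test.

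Among hnRNP genes, Hnrnpr, a close relative of the RNA-binding protein Syncrip, and Hnrnpf, which binds runs of G, had the lowest differences. Hnrnpr read 717.4 units after UVB and 1512 unirradiated in KO-labelled cells, against 603.8 and 1194 in WT cells, and fell by 1.03 (SE 0.11, limma adjusted p = 3.95e-05). Hnrnpf read 2804 and 5023 units in KO-labelled cells, against 2202 and 4851 in WT cells, and fell by 0.99 (SE 0.10). Hnrnpr was past 2-fold lower in KO-labelled cells, at 2.11-fold against 1.98-fold in WT, and Hnrnpf in WT cells, at 1.79-fold in KO-labelled against 2.20-fold in WT.

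Hnrnpa1, which binds exonic silencers, read 822.6 and 1599 units in KO-labelled cells, against 831.9 and 1468 in WT cells, and fell by 0.89 (SE 0.11). Its probe set has the suffix for shared probes, and near-identical copies of this gene exist in the genome, so its value is uncertain. Hnrnpl, which binds CA repeats, read 343.9 and 632.5 units in KO-labelled cells, against 389.8 and 724.2 in WT cells, and fell by 0.89 (SE 0.12), but lay at -0.083 after quantile normalization and did not pass there. Hnrnpll, Hnrnpul1, Hnrnph1, Hnrnpa0, Hnrnpd, Hnrnpul2, Hnrnpm, Hnrnpu, Hnrnpdl and Hnrnpk fell by 0.75 to 0.50, and Hnrnph3 and Hnrnph2 fell by 0.47 and 0.32.

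At the other end of the hnRNP family stood 3 bright genes. Hnrnpc, a core hnRNP that binds U tracts and holds RNA in the nucleus, read 4631 units after UVB and 5107 unirradiated in KO-labelled cells, against 4345 and 4840 in WT cells, a difference of -0.15 (SE 0.09, limma adjusted p = 0.145). Hnrnpa2b1 read 3844 and 4504 units in KO-labelled cells, against 3517 and 3775 in WT cells, a difference of -0.17 (SE 0.09, limma adjusted p = 0.125). Neither passed with its brightest probe set, and Hnrnpab had the next smallest difference. Averaged over their probe sets, Hnrnpc fell by 0.35 and Hnrnpa2b1 fell by 0.64. For Hnrnpa2b1 the 3 dimmer probe sets lay at -0.52, -0.66 and -1.23. Hnrnpu, a nuclear scaffold protein, had a dim probe set that was 3.14-fold lower in KO-labelled and 2.75-fold lower in WT cells, and one that was at least 2.34-fold and at least 3.90-fold lower, against 1.63-fold and 1.43-fold for the brightest. Hnrnph3, the dimmest tested member, read 149.9 and 225.8 units in KO-labelled cells, against 166.5 and 212.2 in WT cells. It changed sides with the scaling: it fell as deposited and rose by 0.55 after quantile normalization.

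In the SF3 complexes, Sf3b3 and Sf3b1 had the lowest UVB differences. Sf3b3, an SF3b subunit built of propeller domains, read 551.2 units after UVB and 1394 unirradiated in KO-labelled cells, against 516.4 and 1263 in WT cells. It was 2.53-fold and 2.45-fold lower, and fell by 1.31 (SE 0.11, limma adjusted p = 1.18e-05). Sf3b1, the subunit that holds the branch point and is often mutated in human myeloid disease, read 822.1 and 1664 units in KO-labelled cells, against 836.8 and 1611 in WT cells, and fell by 0.98 (SE 0.10), with its 4 probe sets at -1.13 to -0.84. Sf3b3 and Sf3b1 were the 2 SF3 genes that fell after quantile normalization as well, at -0.65 and -0.41.

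All 3 SF3a genes fell. Sf3a3 read 506.9 units after UVB and 965.7 unirradiated in KO-labelled cells, against 436.9 and 775.7 in WT cells, and fell by 0.88 (SE 0.12). Sf3a1, which joins SF3a to the U2 snRNP, read 352.5 and 670.8 units in KO-labelled cells, against 386.1 and 522.7 in WT cells, and fell by 0.68 (SE 0.15). Sf3a2 fell by 0.56. The 3 genes had both irradiated arrays below both unirradiated ones. Of the other SF3b genes, Sf3b6, which contacts the branch-point adenosine, fell by 0.49. Sf3b4 read 1498 and 2267 units in KO-labelled cells, against 1521 and 1801 in WT cells, and fell by 0.42 (SE 0.11). Sf3b2 read 765.2 and 1151 units in KO-labelled cells, against 792.5 and 935.3 in WT cells, and fell by 0.41 (SE 0.12). Both differed more in KO-labelled cells. Sf3b5, the shortest SF3 gene and the brightest, read 3160 units after UVB and 3451 unirradiated in KO-labelled cells, against 3002 and 3344 in WT cells. Its difference of -0.14 (SE 0.09, limma adjusted p = 0.182) did not pass, although Sf3b5 fell by 0.45 with its second probe set, which has no suffix for shared probes. After quantile normalization the differences of Sf3a1, Sf3a2, Sf3b2, Sf3b4, Sf3b5 and Sf3b6 were between 0.0007 and 0.23.

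Sm and snRNP genes stayed closest to their unirradiated signal as deposited. Snrpd3, a protein of the Sm ring, had the smallest difference of all 45 genes: it read 2589 units after UVB and 2679 unirradiated in KO-labelled cells, against 2065 and 2047 in WT cells, a difference of -0.018 (SE 0.09, limma adjusted p = 0.871). Snrpg, the brightest of the family, read 5652 and 5974 units in KO-labelled cells, against 5459 and 5443 in WT cells. Snrpe read 4677 and 5250 units in KO-labelled cells, against 4802 and 4664 in WT cells. Both encode proteins of the Sm ring. In WT cells the 2 arrays differed by 1.01-fold for Snrpd3, 1.003-fold for Snrpg and 1.03-fold for Snrpe.

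Snrpf, a further ring protein, read 827.5 and 1076 units in KO-labelled cells, against 883.6 and 785.8 in WT cells. Snrpa1, a protein specific to the U2 snRNP, read 1635 and 1998 units in KO-labelled cells, against 1785 and 1762 in WT cells. Snrpc, specific to the U1 snRNP, read 2031 and 2259 units in KO-labelled cells, against 1806 and 2065 in WT cells. None of these 3 passed, with differences of -0.10, -0.14 and -0.17. Snrpb and Snrpb2 did: Snrpb, the SmB protein, read 2810 and 3775 units in KO-labelled cells, against 2939 and 3479 in WT cells, and fell by 0.33 (SE 0.09), and Snrpb2, of the U2 snRNP, read 780.0 and 1249 units in KO-labelled cells, against 813.8 and 1026 in WT cells, and fell by 0.51 (SE 0.12). After quantile normalization Snrpf rose by 0.53, Snrpd3 by 0.39, Snrpa1 by 0.34 and Snrpc by 0.27, and the other 4 lay between -0.0068 and 0.17 and did not pass.

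Within a genotype, 6 of 45 members were at least 2-fold lower after UVB in KO-labelled cells and 5 of 45 in WT cells, beside 39.3% and 34.8% of all genes tested, and 0 were at least 2-fold higher, beside 0.167% and 0.58%. Srsf4, Srsf11, Srsf10 and Sf3b3 were past 2-fold in both, Sf3b1 and Hnrnpr in KO-labelled cells and Hnrnpf in WT cells. After quantile normalization 0 members were past 2-fold lower in either genotype, beside 8.37% and 9.69% of all genes, and after median centring also 0, beside 6.67% and 7.55%.

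**Figure D4:**
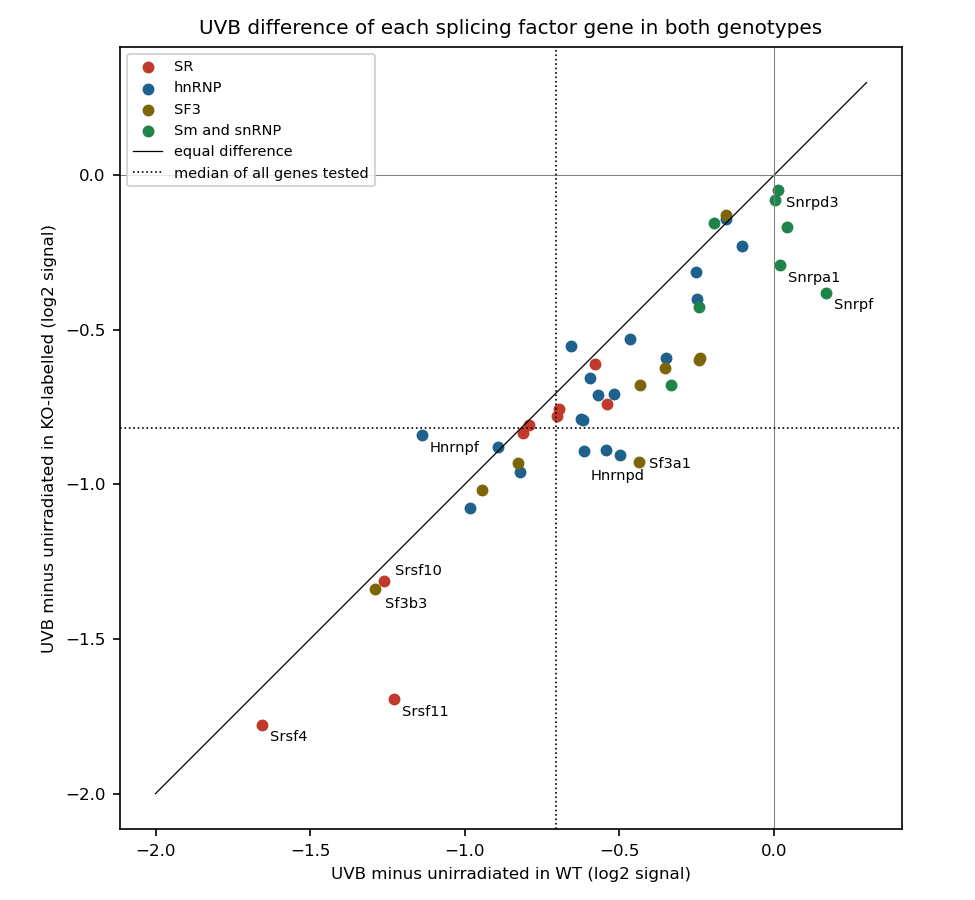
Log2 difference of signal after UVB minus unirradiated for each tested gene, in KO-labelled cells on the vertical axis and in WT cells on the horizontal axis, coloured by family. The solid line marks equal differences and the dotted lines the medians of all genes tested, -0.82 and -0.70. Most points lie below the solid line, and Srsf4, Srsf11, Srsf10 and Sf3b3 lie at the lower left.

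The UVB differences of the 45 genes in KO-labelled and WT cells, which share no array, correlated across genes at 0.91 by Pearson and 0.89 by Spearman, given as a description. The difference was more negative in KO-labelled cells for 39 of 45 genes, or 86.7%, beside 59.8% of all genes tested, and the median of KO-labelled minus WT was -0.13 against -0.081. After quantile normalization it was more negative for 62.2% of the members and 47.9% of all genes. The most negative differences were -0.55 for Snrpf, -0.49 for Sf3a1, -0.47 for Srsf11, -0.41 for Hnrnpd and -0.35 for Sf3b4, and the highest were 0.30 for Hnrnpf and 0.10 for Hnrnpdl, followed by Snrpc at 0.039, Sf3b5 at 0.029 and Hnrnpc at 0.015. No member, 0 of 45, was past 2-fold, beside 4.27% of all genes. With 1 array a group this difference of differences has no test. It shares both unirradiated arrays with the genotype difference before irradiation, so these results are not independent.

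Before irradiation, signal was higher in KO-labelled than in WT cells for 43 of 45 members (all but Hnrnpl and Srsf5), or 95.6%, beside 73.1% of all genes, and the median log2 difference was 0.23 against 0.16. The count depends on the scaling: quantile normalization gave 34 of 45, or 75.6%, beside 49.4% of all genes, and a members' median of 0.089, and median centring gave 29 of 45, or 64.4%, beside 48.2%. After UVB 27 of 45 members, or 60%, were higher in KO-labelled cells, beside 55.9% of all genes, with a median of 0.074 against 0.052 for all genes. A total of 16 members were higher in KO-labelled cells unirradiated and lower there after UVB. The share of all genes that did so was not counted. Over all genes the share higher in KO-labelled cells was 73.1% unirradiated and 55.9% after UVB, which does not give the share that changed side. Whether the count is particular to the members was not tested. No member was past 2-fold between genotypes in either condition, beside 2.88% of all genes after UVB and 2.36% unirradiated.

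Hnrnpu had the lowest genotype p of the members as deposited. It read 2362 units after UVB and 3855 unirradiated in KO-labelled cells, against 1827 and 2611 in WT cells, and was thus higher in KO-labelled cells in both conditions. The difference over both conditions was 0.47 (SE 0.10, limma adjusted p = 0.0534). In that test 0 of 45 members passed, beside 1.61% of all genes in either direction as deposited and 2.29% after quantile normalization, and 9 of 45 had an unadjusted p below 0.05, beside 1985 of 11379 genes. Hnrnpu alone passed after quantile normalization (difference 0.38, limma adjusted p = 0.0429), with the lower floor (limma adjusted p = 0.0186) and without probe sets of shared probes (limma adjusted p = 0.0478). It did not pass with median centring (limma adjusted p = 0.110) or without the intensity trend (limma adjusted p = 0.348), and with probe sets averaged the lowest adjusted p was that of Hnrnpr (limma adjusted p = 0.138). Its second probe set, 1423051_at, read 1659 and 3151 units in KO-labelled cells, against 1642 and 2797 in WT cells, and differed less. A dim one, 1434391_at, was lower in KO-labelled cells in both conditions, at 43.5 and 136.8 units against 52.3 and 143.9 in WT cells. The dimmest, 1434390_at, read 14.9 and 58.2 units in KO-labelled cells, against 15.3 and 97.1 in WT cells, with both irradiated values below the floor.

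The other members with the highest KO-labelled minus WT differences in unirradiated cells were Hnrnpd at 0.56, Srsf4 at 0.48, Snrpf at 0.45 and Snrpd3 at 0.39. Hnrnpd, which binds AU-rich mRNA, read 1225 units after UVB and 2294 unirradiated in KO-labelled cells, against 1104 and 1560 in WT cells. The lowest unirradiated differences were Hnrnpl at -0.20, Srsf5 at -0.0054, Sf3b5 at 0.046, Sf3b1 at 0.047 and Hnrnpf at 0.050. After UVB the highest were Hnrnpu at 0.37, Srsf4 at 0.36, Hnrnpf at 0.35, Snrpd3 at 0.33 and Srsf1 at 0.30, and the lowest Srsf11 at -0.32, Hnrnpl at -0.18, Hnrnph3 at -0.15, Hnrnpul1 at -0.14 and Sf3a1 at -0.13. Hnrnpul1, a relative of Hnrnpu, read 846.1 and 1567 units in KO-labelled cells, against 933.1 and 1358 in WT cells, and Hnrnpdl, a relative of Hnrnpd, read 2660 and 3904 units in KO-labelled cells, against 2250 and 3542 in WT cells. Hnrnpl was lower and Snrpd3 higher in KO-labelled cells in both conditions.

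Gene span, which the choice of members did not use, varied with the UVB difference. The span in RefSeq was known for all 45 genes. Its logarithm correlated with the mean UVB difference at a Pearson r of -0.43 and a Spearman rho of -0.41 over these 45 genes, beside -0.32 and -0.34 over 11351 genes of the array. After quantile normalization the members gave -0.28 and -0.22, beside -0.28 and -0.28 over 11387 genes. The genes share their arrays, and signal itself correlated with the difference at a Pearson r of 0.48 among the members as deposited and -0.041 after quantile normalization. The median span was 7.26 kb for SR, 13.7 kb for hnRNP, 17.6 kb for SF3 and 8.37 kb for Sm and snRNP genes, so family order did not follow span. Within families the picture was mixed. Srsf4 (28.2 kb), Srsf11 (25.8 kb) and Srsf10 (14.2 kb) are the longest tested SR genes, and Sf3b1 (42.3 kb) and Sf3b3 (36.3 kb) the longest SF3 genes, while Sf3b5 spans 0.734 kb. Among hnRNP genes the longest, Hnrnpm (39.2 kb), was at -0.63, and Hnrnpc (30.7 kb) had the smallest difference. Among Sm and snRNP genes the longest, Snrpd3 (17.4 kb), had the smallest difference, and Snrpb2 (8.98 kb) the lowest.

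**Figure D5:**
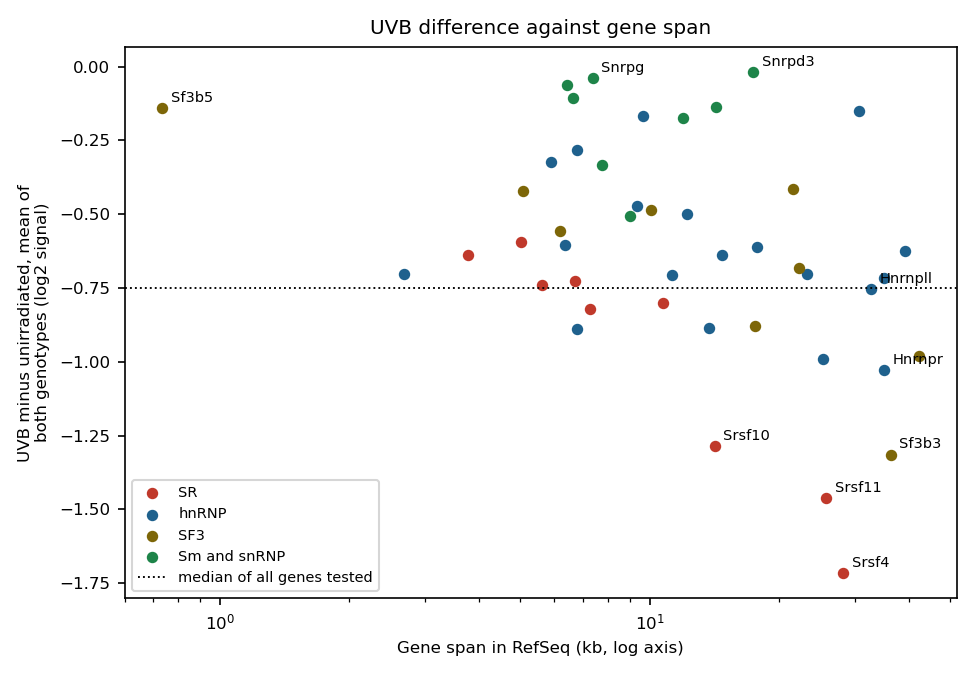
Mean log2 difference of signal after UVB minus unirradiated over both genotypes, against gene span in kb on a log axis, for the 45 tested genes coloured by family. The dotted line is the median of all genes tested, -0.75. Srsf4, Srsf11, Sf3b3 and Srsf10 lie lowest, and Snrpd3 lies near 0 at 17.4 kb.

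Other genes of the splicing and mRNA processing machinery, from lists chosen with earlier results of these data known, fell too as deposited. Of other spliceosome proteins 32 of 36 tested fell and 0 rose, with medians of -0.90 in KO-labelled and -0.63 in WT cells. Luc7l, a protein associated with the U1 snRNP, fell by 2.17 and its relative Luc7l3 fell by 2.14, while Bud31 at -0.12 and Snrnp25 at 0.036 did not pass. Of SR-related proteins and SR protein kinases 19 of 23 fell, with medians of -1.35 and -1.20. There Dyrk1a, a kinase of splicing factors, passed with a difference of -2.81 in KO-labelled cells and of -3.36 in WT cells, the WT one being a bound because its irradiated array was below the floor. Prpf4b, another such kinase, fell by 2.41, whereas Rsrc1 at -0.37 and Rsrp1 at 0.12 did not pass. The background for these counts is again 69.4%.

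Of other splicing regulators 31 of 35 fell, with medians of -0.88 and -0.89. Rbm5 fell by 2.14 and Qk fell by 1.81, and Nono and Raly, at -0.15 and -0.14, did not pass. Of SMN complex and LSm proteins 17 of 20 fell, with medians of -1.15 and -1.03. Most of these proteins, but not all, assemble snRNPs or form rings like those of Sm proteins. Lsm14a fell by 1.97 and Lsm8, of the ring on the U6 RNA, fell by 1.83, while Lsm6 at -0.22 and Lsm4 at -0.13 did not pass. Of exon junction and export proteins 14 of 15 fell, with medians of -0.85 and -0.88. Upf2 fell by 1.73, Thoc2 fell by 1.42 and Thoc7 fell by 0.43, and Rbm8a at -0.15 did not pass. After quantile normalization 8 fell and 6 rose among the spliceosome proteins, 13 and 3 among SR-related proteins and kinases, 13 and 1 among the other regulators, 6 and 2 among SMN and LSm proteins, and 2 and 3 among exon junction and export proteins, beside 20.5% of all genes that fell and 20.3% that rose. By genotype 1 of these genes passed, Prpf19, a ubiquitin ligase of the spliceosome. It read 2679 units after UVB and 3346 unirradiated in KO-labelled cells, against 1850 and 2236 in WT cells (difference 0.56, SE 0.09, limma adjusted p = 0.0223).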

How the data were processed

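Expression was measured on 4 Affymetrix arrays, and samples were grouped by their titles. MAS5 made the values, per the submitters' processing notes. The authors deposited linear signal intensity for each probe set, with the scaling target and detection calls not given in the sources used here. Per the labels' protocols, 0.2 ug of total RNA was labelled by a 3' in vitro transcription kit. Of 45101 probe sets 64 are controls, 34945 carry 1 gene symbol from the platform annotation, 932 several and 9160 none. By gene ID, 34741 of the 34945 were found in RefSeq (GRCm38.p6), with 0 symbols changed.

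Values below the floor (24.9 units, the median over probe sets of mean signal) were raised to it, and the 11379 genes whose mean reached it were fitted on the log2 scale with limma 3.58.1 in R 4.3.3 (irradiation and genotype, additive, intensity trend, Benjamini-Hochberg over all genes, threshold 0.05). The fit was tested on simulated data. Pairs of arrays were compared by fold, with 2-fold as threshold. Where limma gives an adjusted p, "rose" and "fell" mean that it passed. The members and lists were chosen with earlier results of these data known. Named genes are, per family, the 4 lowest and 3 highest UVB differences and the brightest gene, and the 5 largest genotype and response differences in each direction; for the other lists they are the 2 lowest and 2 highest. The remaining members are given by their values too. Alternatives were quantile normalization, median centring, a floor at the 25th percentile (9.38 units), the mean over probe sets, no probe sets of shared probes (_x_at, which 3 of the 45 chosen ones are, or _s_at, which 7 are), limma without the trend or with 1 factor, and folds of 1.5 and 3.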

Additional observations from a re-analysis of the deposited data

Results flagged for a closer look

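In 5 genes, all of the Sm and snRNP family, signal after UVB was lower in KO-labelled cells and higher in WT cells, so the 2 genotypes moved in opposite directions as deposited. The log2 response in KO-labelled cells minus that in WT cells was -0.55 for Snrpf, -0.31 for Snrpa1, -0.21 for Snrpe, -0.084 for Snrpg and -0.062 for Snrpd3. The difference was not tested, since each group has 1 array. In WT cells Snrpf differed by 0.17 and the other 4 by 0.0044 to 0.042. All 45 members were below 0 in KO-labelled cells and 40 in both genotypes, beside 10664 and 9829 of all 11379 genes tested. The second Snrpg probe set was lower in both genotypes, at -0.064 in KO-labelled and -0.20 in WT cells. So was a dim one of Snrpd3, at -0.79 and -0.56. The remaining probe sets of Snrpd3 and Snrpa1 moved in opposite directions. After quantile normalization both genotypes were above 0 for all 5.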

How the results depend on the processing

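Scaling decides the sign of most UVB differences, and the cause of the lower signal on the irradiated arrays was not tested. As deposited 36 members fell, against 17 after quantile normalization and 2 after median centring, and the count was 31 to 39 under the other 5 alternatives. Members that rose were 0, 5 and 35, and 0 under those 5. With quantile normalization the UVB effect of 19 genes turned positive: Hnrnpa2b1 0.13, Hnrnpc 0.10, Hnrnph2 0.24, Hnrnph3 0.55, Hnrnpm 0.022 and Hnrnpul2 0.15 among hnRNP genes, Sf3a1 0.13, Sf3a2 0.00074, Sf3b2 0.23, Sf3b4 0.061, Sf3b5 0.20 and Sf3b6 0.035 among SF3 genes, and Snrpa1 0.34, Snrpb2 0.12, Snrpc 0.27, Snrpd3 0.39, Snrpe 0.17, Snrpf 0.53 and Snrpg 0.14 among Sm and snRNP genes. With median centring it turned positive for 41 genes: Hnrnpa0 0.40, Hnrnpa1 0.21, Hnrnpa2b1 0.93, Hnrnpab 0.82, Hnrnpc 0.95, Hnrnpd 0.40, Hnrnpdl 0.50, Hnrnpf 0.11, Hnrnph1 0.39, Hnrnph2 0.78, Hnrnph3 0.63, Hnrnpk 0.60, Hnrnpl 0.21, Hnrnpll 0.35, Hnrnpm 0.47, Hnrnpr 0.071, Hnrnpu 0.49, Hnrnpul1 0.38 and Hnrnpul2 0.46 among hnRNP genes, Sf3a1 0.42, Sf3a2 0.54, Sf3a3 0.22, Sf3b1 0.12, Sf3b2 0.69, Sf3b4 0.68, Sf3b5 0.96 and Sf3b6 0.61 among SF3 genes, Snrpa1 0.96, Snrpb 0.77, Snrpb2 0.59, Snrpc 0.93, Snrpd3 1.08, Snrpe 1.04, Snrpf 0.995 and Snrpg 1.06 among Sm and snRNP genes, and Srsf1 0.28, Srsf2 0.46, Srsf3 0.30, Srsf5 0.51, Srsf6 0.36 and Srsf9 0.37 among SR genes. Under both scalings the effect of Srsf4, Srsf10, Srsf11 and Sf3b3 stayed negative. Members at least 2-fold lower after UVB were 6 in KO-labelled and 5 in WT cells, and 0 in both with quantile normalization and with centring. The other alternatives moved single genes across the threshold with no change of sign: 5 without the intensity trend, 4 with 1 factor, 3 with the mean over probe sets and 2 without probe sets of shared probes. At 1.5-fold the members lower after UVB were 31 and 19, and at 3-fold 2 and 1. The shares of all genes at these folds were not counted. At 2-fold they were 39.3% and 34.8% as deposited, beside the 6 and 5 members given above. No excess or lack is read from the counts at 1.5-fold and 3-fold. For genotype 0 members passed, and 1, Hnrnpu, did with quantile normalization, with the floor at the 25th percentile and without probe sets of shared probes. With that lower floor, where 47 members were tested, 2 were past 2-fold between genotypes after UVB and 2 in the difference of the responses, against 0 in each otherwise. These 2 are Srsf12 and Snrpn. They read 2.88 and 4.96 units in KO-labelled cells after UVB, below the lower floor as well, so these differences are bounds at dim signal. The share of all genes past 2-fold with that floor was not counted. No paired analysis was possible because each group has 1 array and the labels carry no replicate numbers. Dim probe sets limit what can be said of Srsf12 and Snrpn.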
